A study of Mus musculus with 10 samples.

Results

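The genes described here are 9 lipid handling genes of microglia, Apoe, Apoc1, Lpl, Lipa, Abca1, Abcg1, Fabp5, Plin2 and Ch25h, of 18281 gene symbols in the tables. They were chosen by name, as genes of lipid uptake, storage and efflux. All 9 passed the filter on low counts and were tested.

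Their level was measured by droplet single cell RNA sequencing (10x Genomics 3' chemistry) in microglia of C57BL/6 mice, sorted as live cells high in CD11b and intermediate in CD45. Adult microglia came straight from adult mouse brain. Slice microglia came from coronal brain slices of neonatal pups, kept on membrane inserts for 1 day, 1 week or 3 weeks, with several slices pooled where needed. In vitro microglia were collected from the medium of 2-dimensional mixed glial cultures of neonatal cortex, labelled as cultured for 3 weeks. Of the slice groups only that of 3 weeks matches them in time of culture. Each of the 5 groups had 2 libraries, 10 in all. By the study's methods, both culture media contained serum and the slice medium also received platelet derived growth factor, whereas adult microglia were never cultured, so that culture, serum and the age of the donor animals cannot be told apart in a comparison with adult microglia.

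Microglia take up lipoproteins, myelin and dead cells, break down the cholesteryl esters in lysosomes, and either store the lipid in droplets or hand the cholesterol to lipoprotein particles outside the cell. APOE is the main protein of those particles in brain, APOC1 is a smaller apolipoprotein, and the transporters ABCA1 and ABCG1 load them. Cholesterol efflux genes are switched on by the liver X receptors (LXR), nuclear receptors that sense oxidised cholesterol, and Apoe and Lpl are also genes of the profile that microglia take on around plaques and in demyelination.

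After filters, the 10 libraries held 61 to 3799 cells and 385373 to 39689540 UMIs (unique molecular identifiers, each standing for 1 captured RNA molecule). Slice microglia at 1 week were the thinnest group, with 148 and 61 cells. The study also removed outlying cells by t-SNE, a map of cells by likeness, and that step was not repeated, so that the cells counted here are more than its microglia, and the larger part of slice 1 week replicate 1 was not in its set. Between 0 and 21 cell barcodes were shared by any pair of libraries. All 12 microglia markers were detected in each library, with a summed level of 58482 to 59177 CPM (CPM scales the UMIs of a gene to the total of its library) in adult microglia and 11616 to 41769 CPM in the cultured groups. Barcodes in which S100a8 and S100a9 held at least 1% of UMIs, called neutrophil-like, numbered 68 and 114 in the slice libraries of 1 day (13.1% and 11.2% of cells), 24 and 1 in those of 1 week (16.2% and 1.64%), and 0 elsewhere. Between 0.5% and 2%, near this threshold, lay 7, 46, 23 and 0 cells of these 4 libraries. Summed border macrophage markers were at 5.74 to 11.1 CPM in adult, 45.5 to 316 CPM in slice and 2132 to 2270 CPM in in vitro microglia. Summed monocyte markers were at 157 and 188 CPM at 1 day and at 160.1 and 0 CPM at 1 week, against at most 7.103 CPM in the other libraries, and all 5 were at 0 in slice 1 week replicate 2. Summed neuron markers were at 44.4 and 33.7 CPM at 1 week and at most 7.93 CPM elsewhere. Summed markers of oligodendrocyte precursors were at 0.081 to 0.147 CPM in adult and 0.324 to 1.39 CPM in in vitro microglia. In slices they were at 10.4 to 17.0 CPM at 1 day, 2.78 to 25.9 CPM at 1 week and 29.4 to 40.6 CPM at 3 weeks. Summed astrocyte markers were at 151 to 156 CPM in adult and 6.89 to 39.1 CPM in cultured libraries. The part of these cells and markers in the results was not tested, and values without the neutrophil-like barcodes are given where they change a call.

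Where the genes lie helps in reading their counts. In mm10, Apoe (chr7:19696109-19699188) and Apoc1 (chr7:19689481-19692660) lie on the minus strand 3448 bases apart, in 1 cluster with Apoc4 and Apoc2. Ch25h (chr19:34473778-34475164) and Lipa (chr19:34492318-34527474) are neighbours as well, 17153 bases apart on the minus strand. Lpl lies at chr8:68880491-68907448, Fabp5 at chr3:10012548-10016607, Abca1 at chr4:53030787-53159895, Abcg1 at chr17:31057675-31117988 and Plin2 at chr4:86648386-86670060. Fabp5 has a processed pseudogene, Fabp5l2, and its count is uncertain to the extent that reads of such copies were split between them.

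RefSeq promoter sequences (build GRCm38.p6, the same assembly as mm10) were held for 5 of the 9 genes. The 250 bases before the start site are shown for 4 of them, 5′ to 3′ on the minus strand, because their patterns differed, with Apoe highest in vitro and in slices at 1 week, Plin2 and Ch25h at 1 day, and Abca1 nearly level among the cultured groups. Capitals mark matches on either strand to any of 8 motifs: the LXR direct repeat in the form known from the Abca1 promoter, the E-box CACGTG, the TATA box TATAAA, the cyclic AMP response element TGACGTCA, the GC box GGGCGG, the CCAAT box CCAAT, the AP-1 site TGANTCA and the nuclear receptor hexamer AGGTCA.
Apoe, chr7:19699189-19699438: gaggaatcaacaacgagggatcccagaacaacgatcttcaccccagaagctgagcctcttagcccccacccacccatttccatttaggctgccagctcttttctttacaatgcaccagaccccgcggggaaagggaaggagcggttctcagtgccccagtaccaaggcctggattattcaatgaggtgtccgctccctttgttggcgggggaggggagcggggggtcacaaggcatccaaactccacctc
Abca1, chr4:53159896-53160145: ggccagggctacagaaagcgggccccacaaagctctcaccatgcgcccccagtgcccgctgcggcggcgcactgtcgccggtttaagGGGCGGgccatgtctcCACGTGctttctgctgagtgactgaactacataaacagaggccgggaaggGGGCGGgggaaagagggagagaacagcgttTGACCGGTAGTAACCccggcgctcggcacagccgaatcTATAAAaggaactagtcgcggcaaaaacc
Plin2, chr4:86670060-86670309: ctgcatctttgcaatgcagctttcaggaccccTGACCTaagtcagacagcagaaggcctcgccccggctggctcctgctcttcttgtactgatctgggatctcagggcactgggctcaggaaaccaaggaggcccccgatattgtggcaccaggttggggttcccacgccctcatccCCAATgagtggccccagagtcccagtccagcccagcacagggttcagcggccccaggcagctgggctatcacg
Ch25h, chr19:34475149-34475398: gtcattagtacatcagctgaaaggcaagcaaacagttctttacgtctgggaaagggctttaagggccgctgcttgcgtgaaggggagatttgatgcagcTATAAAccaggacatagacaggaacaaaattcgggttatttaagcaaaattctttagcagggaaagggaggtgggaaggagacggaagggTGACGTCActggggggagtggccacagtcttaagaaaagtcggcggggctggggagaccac

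The motifs were chosen with the sequences in view, and a match is a description of letters, not a binding site. The LXR direct repeat was found in the Abca1 window, from -67 to -53 relative to the start site on the reverse strand, and in 2 of 32851 promoter windows in all (0.00609%). Its letters are those of the Abca1 promoter itself, so that this match was fixed in advance. The share of windows is that of these letters, not of LXR sites, and other forms of the repeat were not searched in any window. The Abca1 window also held a TATA box at -29, shared by 12.4% of windows, and an E-box at -147, shared by 6.02%, and 2 GC boxes (32.7%). The Ch25h window held a cyclic AMP response element at -61 (1.55% of windows) and a TATA box further away at -151, the Plin2 window an inverted nuclear receptor hexamer at -218 (14.0%) and a CCAAT box (33.8%), and the Apoe window had no match to these letters.

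**Figure D1:**
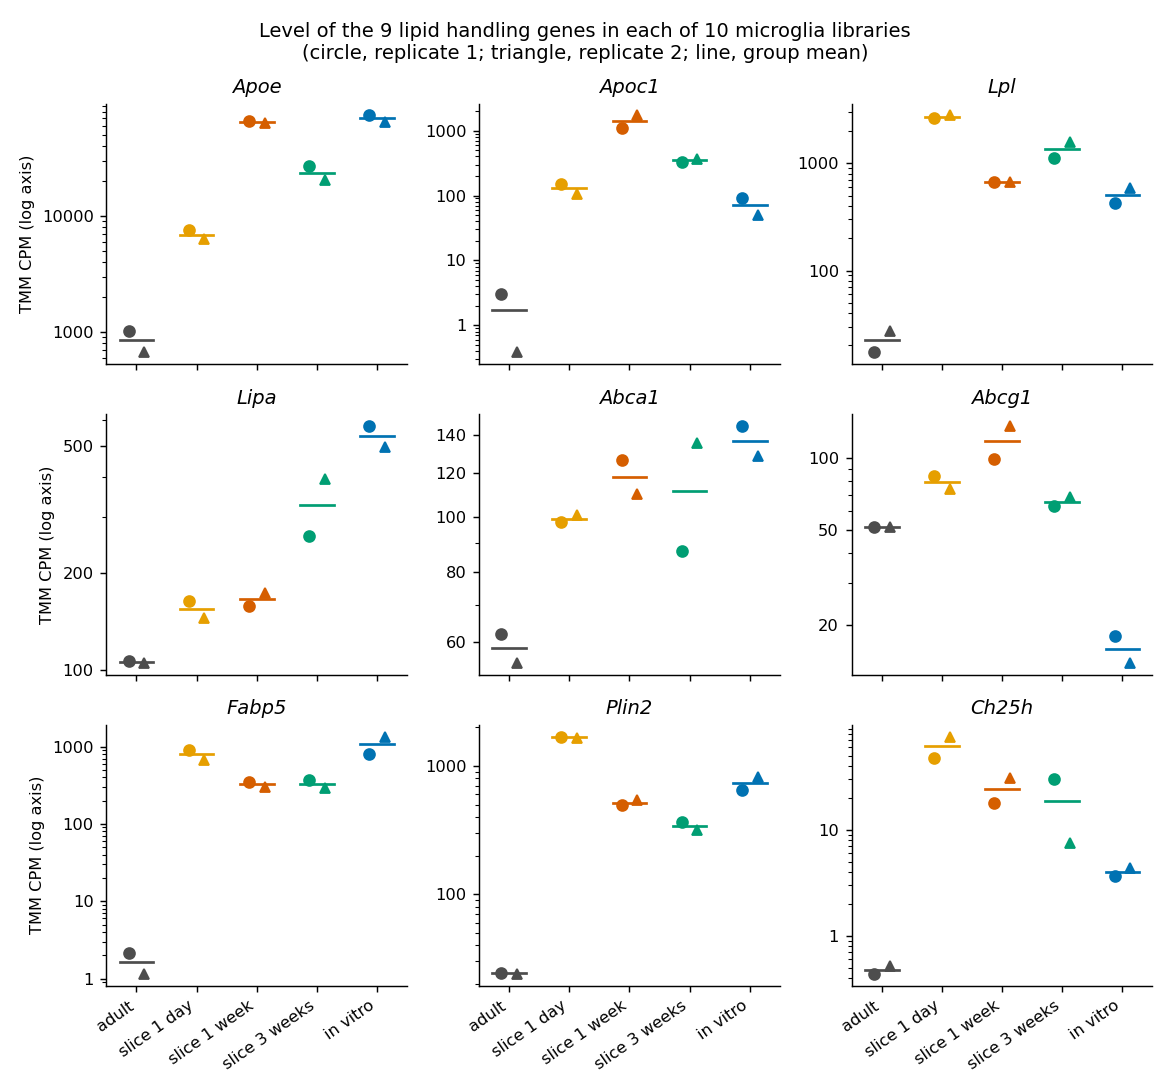
Level of each of the 9 genes in each of the 10 libraries, in CPM after TMM scaling, on log axes that differ between panels. Circles and triangles are replicates 1 and 2 and lines are group means. For 8 of the genes both adult libraries lie below all 8 cultured libraries, as they do for 14.8% of all tested genes, and for Abcg1 both in vitro libraries lie lowest, as for 9.98% of all tested genes.

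Apoe encodes the lipoprotein component itself. Its level after TMM scaling (edgeR's correction for library composition) was 1027 and 670 CPM in the adult libraries. It was 7536 and 6352 CPM at 1 day, 65849 and 63891 CPM at 1 week, 27037 and 20517 CPM at 3 weeks in slices, and 73979 and 65392 CPM in vitro. The libraries of each group did not overlap those of any other group except for slice microglia at 1 week and in vitro microglia, which did. Differential expression was tested with edgeR's quasi-likelihood test on UMIs summed per library, over 12155 genes and with all 10 libraries in 1 model, and a gene was called at an adjusted p under 0.05 and a fold change above 1.5.

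Against adult microglia, Apoe was 82.1-fold higher in vitro (log2 6.36 ± 0.27 SE, edgeR adjusted p = 6.04e-08) and 76.4-fold higher in slice microglia at 1 week. It was 28.02-fold higher at 3 weeks and 8.18-fold higher at 1 day (log2 3.03 ± 0.23, edgeR adjusted p = 4.52e-06). In order of level, in vitro and slice microglia at 1 week did not differ beyond their spread (log2 0.10 ± 0.22, edgeR adjusted p = 0.805), though as UMIs per cell Apoe was called higher in vitro (log2 1.08, edgeR adjusted p = 0.0255), and the other 3 neighbouring pairs in the order did. The step from 1 week down to 3 weeks (log2 -1.45 ± 0.22, edgeR adjusted p = 0.00545) was no longer called without slice 1 week replicate 1 (log2 -1.41, edgeR adjusted p = 0.105).

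Per cell, Apoe took up a median of 6.97% and 6.10% of a cell's UMIs in the 2 in vitro libraries, and 3.97% and 4.55% in slice microglia at 1 week. The medians were 1.72% and 1.19% at 3 weeks, 0.556% and 0.516% at 1 day, and 0.029% and 0% in adult microglia. The share of Apoe UMIs held by the richest cells of a library also differed between groups. The 10% of adult cells richest in Apoe held 75.3% and 86.7% of all Apoe UMIs of the library, while the richest 10% of in vitro cells held 19.7% and 20.4%. With each cell thinned to 1000 UMIs these shares were 78.1% and 86.5% in adult and 18.8% and 20.7% in in vitro microglia. Such a share rises where a gene has few UMIs per cell, and thinning does not make the Apoe counts equal. Apoe had a mean of 3.69 and 1.47 UMIs per cell in adult and 953 and 869 in in vitro microglia. Adult Lipa had thinned shares of 88.7% and 85.2%, so that evenness cannot be told apart from level here. The richest 10% of slice cells lay between these, holding 40.1% and 45.0% of Apoe UMIs in the 3 week libraries, 36.2% and 32.1% after 1 day and 31.6% and 26.2% after 1 week.

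**Figure D2:**
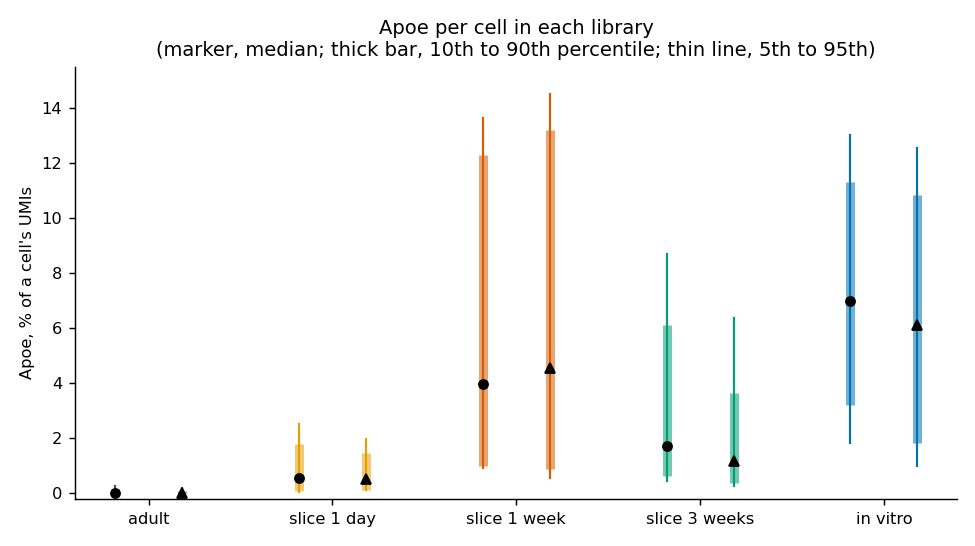
Apoe as a percent of the UMIs of a cell, in each library. Markers are medians, thick bars span the 10th to 90th and thin lines the 5th to 95th percentile of cells. The adult medians are 0.029% and 0%, and the in vitro medians 6.97% and 6.10%.

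In adult microglia a large part of the Apoe transcripts lay in few cells. With a threshold set after the values were seen, 93 of 3799 cells of adult replicate 1 (2.45%) and 57 of 3527 of replicate 2 (1.62%) had at least 0.5% of their UMIs from Apoe, and they held 56.0% and 61.5% of the Apoe UMIs. In the remaining adult cells Apoe was at 511 and 299.9 CPM without TMM scaling, against 24534 and 25884 CPM in the Apoe-rich cells, values that the choice of cells fixed. Their median depth was 3277 and 1801 UMIs, close to the 3256.5 and 1858 of the rest. The MHC class II chain H2-Aa was at 699.7 and 704 CPM in the Apoe-rich cells and at 3.81 and 2.25 CPM in the rest. Cd74, the invariant chain, was at 2433 and 2783 CPM against 67.0 and 68.8 CPM. The 6 border macrophage markers summed to 256 and 129 CPM in the Apoe-rich cells, from 82 and 16 UMIs, and to 4.64 and 3.45 CPM in the rest. The 12 microglia markers summed to 53273 and 51890 CPM in the Apoe-rich cells and to 59334 and 58604 CPM in the rest, with P2ry12 among them at 4289 and 4604 CPM against 7224 and 8520 CPM. Apoc1 followed Apoe, with 32 of its 42 UMIs in the Apoe-rich cells of replicate 1 and 3 of 3 in replicate 2. The summed astrocyte markers were at 253 and 48.5 CPM in the Apoe-rich cells and 153 and 153 CPM in the rest, most of it from Slc1a3. Without Slc1a3 the list held 35 UMIs in the Apoe-rich cells of replicate 1 and 34 in the rest (109 and 2.82 CPM), and 0 and 22 UMIs in replicate 2. Of its defining genes, all 7 Aqp4 UMIs of replicate 1 lay in the Apoe-rich cells, replicate 2 had 0, and Gfap had 0 in the Apoe-rich cells of both. The part of astrocyte RNA in these cells was not tested.

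Apoc1, a small apolipoprotein carried on the same particles as APOE, was nearly absent from adult microglia, with 42 UMIs in replicate 1 and 3 in replicate 2 (3.08 and 0.386 CPM). It was highest in slice microglia at 1 week, at 1088 and 1707 CPM, followed by 3 weeks at 328 and 366 CPM and 1 day at 153 and 105 CPM. In vitro microglia had 91.0 and 50.8 CPM. So the group order of Apoc1 differed from that of its neighbour Apoe: in vitro microglia, which with slices at 1 week had the most Apoe, had less Apoc1 than every slice library. The next group in that order, slices at 1 day, was not told apart from in vitro microglia by its test (log2 of in vitro over 1 day -0.86 ± 0.44, edgeR adjusted p = 0.156, but 0.0489 in the libraries of study label TST11247 alone and 0.00102 with no filter on low counts).

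With slices at 3 weeks as the reference, Apoe was higher in vitro (log2 1.55 ± 0.22, edgeR adjusted p = 0.00043) and Apoc1 was lower (log2 -2.29 ± 0.46, edgeR adjusted p = 0.00316). Against adult microglia, Apoc1 was called in all 4 cultured groups, with log2 fold changes from 5.18 ± 0.57 in vitro to 9.48 ± 0.66 in slices at 1 week. The size of these folds rested on the adult libraries, and the same range was 7.58 to 11.8 without adult replicate 1 and 4.52 to 8.81 without adult replicate 2, with every call kept. The rise of Apoc1 from 1 day to 3 weeks in slices (log2 1.43 ± 0.45, edgeR adjusted p = 0.035) was lost without slice 1 day replicate 1 (edgeR adjusted p = 0.0613), slice 1 day replicate 2 (0.197) or slice 3 weeks replicate 2 (0.104), with the study label of the libraries as covariate (0.0724) and with DESeq2 (0.143). Its fall from 1 week to 3 weeks (log2 -2.005 ± 0.46, edgeR adjusted p = 0.0327) was lost without either library of either group, at adjusted p of 0.0756 to 0.139, and with DESeq2 (0.0692).

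Lpl encodes lipoprotein lipase, which frees fatty acids from triglyceride-rich particles. It was at 17.3 and 27.3 CPM in adult, 2645 and 2795 CPM in slices at 1 day, 677 and 668 CPM at 1 week, 1125 and 1593 CPM at 3 weeks, and 423 and 593 CPM in vitro. Slice microglia at 1 day lay above every other library and both adult libraries below. Lpl was 123-fold higher at 1 day than in adult microglia (log2 6.94 ± 0.32, edgeR adjusted p = 2.97e-07), 61.3-fold higher at 3 weeks, 30.3-fold higher at 1 week and 22.9-fold higher in vitro. In vitro and slice microglia at 1 week, next to each other in the order, did not differ beyond their spread (log2 -0.41 ± 0.25, edgeR adjusted p = 0.303).

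Within slices Lpl fell from 1 day to 3 weeks (log2 -1.001 ± 0.24, edgeR adjusted p = 0.0121), a call lost without slice 1 day replicate 2 (log2 -0.95, edgeR adjusted p = 0.0755). It was at its slice minimum at 1 week, but the rise from 1 week to 3 weeks (log2 1.02 ± 0.25, edgeR adjusted p = 0.0414) was lost without either 1 week library (0.264 and 0.116), slice 3 weeks replicate 2 (0.126) or either 1 day library (0.0618 and 0.0636). Without the neutrophil-like barcodes its edgeR adjusted p was 0.0527, and as UMIs per cell 0.234.

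Fabp5, a fatty acid chaperone of the cytosol, and Plin2, a coat protein of lipid droplets, were lowest in adult microglia and highest in vitro and at 1 day, respectively, though the Fabp5 libraries of those groups overlapped. Fabp5 had 29 and 9 UMIs in the adult libraries (2.12 and 1.16 CPM). It was at 906 and 672 CPM at 1 day, 349 and 299 CPM at 1 week, 374 and 289 CPM at 3 weeks, and 795 and 1330 CPM in vitro. The cultured libraries all lay far above the adult ones, with overlap between 1 day and in vitro and between 1 week and 3 weeks. Fabp5 was the member with the greatest fold change in vitro, at 614-fold over adult (log2 9.26 ± 0.41, edgeR adjusted p = 6.92e-08), and was 192-fold higher in slices at 3 weeks (log2 7.58 ± 0.39). Without adult replicate 1 these log2 values were 9.93 and 8.203.

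Plin2 was at 24.3 and 24.0 CPM in adult, 1687 and 1661 CPM at 1 day, 496 and 542 CPM at 1 week, 366 and 316 CPM at 3 weeks, and 654 and 826 CPM in vitro. No libraries of different groups overlapped. In the order of levels, the differences of in vitro over 1 week (log2 0.51 ± 0.16, edgeR adjusted p = 0.0502) and of 3 weeks over 1 week (log2 -0.60 ± 0.16, edgeR adjusted p = 0.0539) were not called. Each was called under some alternatives, such as DESeq2 for the latter (0.00493). Plin2 was 69.3-fold higher at 1 day than in adult (log2 6.12 ± 0.20, edgeR adjusted p = 5.13e-08) and 14.1-fold higher at 3 weeks (log2 3.82 ± 0.18). Both genes fell within slices from 1 day to 3 weeks, with log2 changes of -2.30 ± 0.16 for Plin2 (edgeR adjusted p = 5.61e-05) and -1.25 ± 0.27 for Fabp5 (edgeR adjusted p = 0.00746). Both were higher in vitro than in slices at 3 weeks, with log2 differences of 1.12 ± 0.16 for Plin2 and 1.68 ± 0.28 for Fabp5 (edgeR adjusted p = 0.000408 and 0.00107).

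Lipa encodes lysosomal acid lipase, which releases cholesterol from the esters of engulfed lipoproteins. It was at 106 and 105 CPM in adult, 164 and 145 CPM at 1 day, 158 and 174 CPM at 1 week, 261 and 394 CPM at 3 weeks, and 575 and 495 CPM in vitro. The slice libraries at 1 day and 1 week overlapped, and the in vitro libraries lay above all others. Lipa was 5.07-fold higher in vitro than in adult (log2 2.34 ± 0.20, edgeR adjusted p = 5.22e-06) and 3.11-fold higher at 3 weeks (log2 1.64 ± 0.20, edgeR adjusted p = 0.000135).

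At 1 day its difference from adult (log2 0.55 ± 0.19, edgeR adjusted p = 0.032) was under the 1.5-fold threshold, near which it lay, and it was called under 12 alternatives, among them DESeq2 (log2 0.601, adjusted p = 0.00756) and 6 that left out 1 library. At 1 week it was called (log2 0.65 ± 0.20, edgeR adjusted p = 0.0357), but not without any 1 of 7 libraries: both adult (edgeR adjusted p = 0.0877 and 0.119), both in vitro (0.0523 and 0.0522), slice 1 day replicate 1 (0.0519) and both slice 1 week libraries (0.118 and 0.149). With cells thinned to 1000 UMIs that log2 difference was 0.18, and it was not called with library size alone (0.127) or the study label as covariate (0.112) either. Lipa rose within slices from 1 day to 3 weeks (log2 1.08 ± 0.19, edgeR adjusted p = 0.00263), in the opposite direction to Lpl, Fabp5, Plin2 and Ch25h, though as UMIs per cell the rise was 0.63 and not called. It was also higher in vitro than at 3 weeks (log2 0.71 ± 0.19, edgeR adjusted p = 0.0146), a call lost without in vitro replicate 1 (0.0743) or slice 3 weeks replicate 1 (0.0591) and in the libraries of study label TST11247 alone (0.0543), and just under the fold threshold with that label as covariate.

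Of the cholesterol efflux transporters, Abca1, which lipidates newly secreted apolipoprotein, was at 62.1 and 55.1 CPM in adult, 98.3 and 101 CPM at 1 day, 126 and 110 CPM at 1 week, 87.2 and 136 CPM at 3 weeks, and 145 and 129 CPM in vitro. All 8 cultured libraries lay above both adult libraries, while none of the neighbouring cultured groups in the order differed beyond their spread. Its fold changes over adult were 2.33 in vitro (log2 1.22 ± 0.20, edgeR adjusted p = 0.000406), 2.04 at 1 week, 1.91 at 3 weeks and 1.70 at 1 day. The call at 1 day was lost without adult replicate 2 (edgeR adjusted p = 0.0542), and the call at 1 week without slice 1 week replicate 1 (0.0845). In cells thinned to 1000 UMIs neither was called (log2 0.55 and 0.72, edgeR adjusted p = 0.0622 and 0.199).

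Abcg1, which passes cholesterol to particles already formed, was the exception in direction. It was at 51.3 and 51.5 CPM in adult, 83.9 and 74.1 CPM at 1 day, 98.8 and 136 CPM at 1 week, and 62.7 and 68.4 CPM at 3 weeks, but at 17.9 and 13.8 CPM in vitro. The in vitro libraries lay below all others and the slice libraries above both adult ones. In vitro microglia had Abcg1 lower than adult (log2 -1.70 ± 0.17, edgeR adjusted p = 1.81e-05), though as UMIs per cell, with no scaling for depth, the difference was 0.48 in the other direction and not called. Abcg1 was lower in vitro than in each slice group, with log2 differences of -2.31 ± 0.18 at 1 day, -2.85 ± 0.20 at 1 week and -2.05 ± 0.17 at 3 weeks. Its rise over adult was called at 1 day (log2 0.62 ± 0.17, edgeR adjusted p = 0.0112) and 1 week (log2 1.15 ± 0.19) but not at 3 weeks (log2 0.35 ± 0.17, edgeR adjusted p = 0.123). The 1 day call was lost without slice 1 day replicate 1 (0.0701), and fell under the fold threshold with library size alone (log2 0.49) or the study label as covariate (log2 0.58). The later fall from 1 week to 3 weeks (log2 -0.80 ± 0.19, edgeR adjusted p = 0.0397) was lost without any 1 of the 10 libraries, and under 7 other alternatives.

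Ch25h encodes cholesterol 25-hydroxylase, whose product 25-hydroxycholesterol is an LXR ligand and a brake on cholesterol synthesis. Adult libraries held 6 and 4 UMIs of it (0.439 and 0.515 CPM). It was at 48.0 and 75.2 CPM at 1 day, 17.8 and 30.7 CPM at 1 week, 30.1 and 7.55 CPM at 3 weeks, and 3.66 and 4.32 CPM in vitro. Slice microglia at 1 day lay above all other libraries, the 1 week and 3 week libraries overlapped, and the in vitro libraries lay between slices and adult.

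Ch25h was 130-fold higher at 1 day than in adult (log2 7.03 ± 0.75, edgeR adjusted p = 3.31e-05), and 8.39-fold higher in vitro (log2 3.07 ± 0.83, edgeR adjusted p = 0.00928), a call lost without adult replicate 1 (0.0723). In vitro microglia had less of it than slices at 3 weeks (log2 -2.17 ± 0.51, edgeR adjusted p = 0.00748), which was lost without in vitro replicate 1 (0.0546) and in cells thinned to 1000 UMIs (log2 -1.36, edgeR adjusted p = 0.0753). Its fall from 1 day to 3 weeks (log2 -1.79 ± 0.49, edgeR adjusted p = 0.0197) was lost without slice 1 day replicate 2 (0.157). Either 3 week library moved the 3 week values by over 1.5-fold. Without replicate 1 or replicate 2 of that group, the log2 fold change over adult of 5.24 was 3.98 or 6.04, that from 1 day to 3 weeks was -3.05 or -1.04, and that of in vitro over 3 weeks was -0.92 or -2.85, all still called. The low adult counts make its folds over adult imprecise, as the standard errors show.

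**Figure D3:**
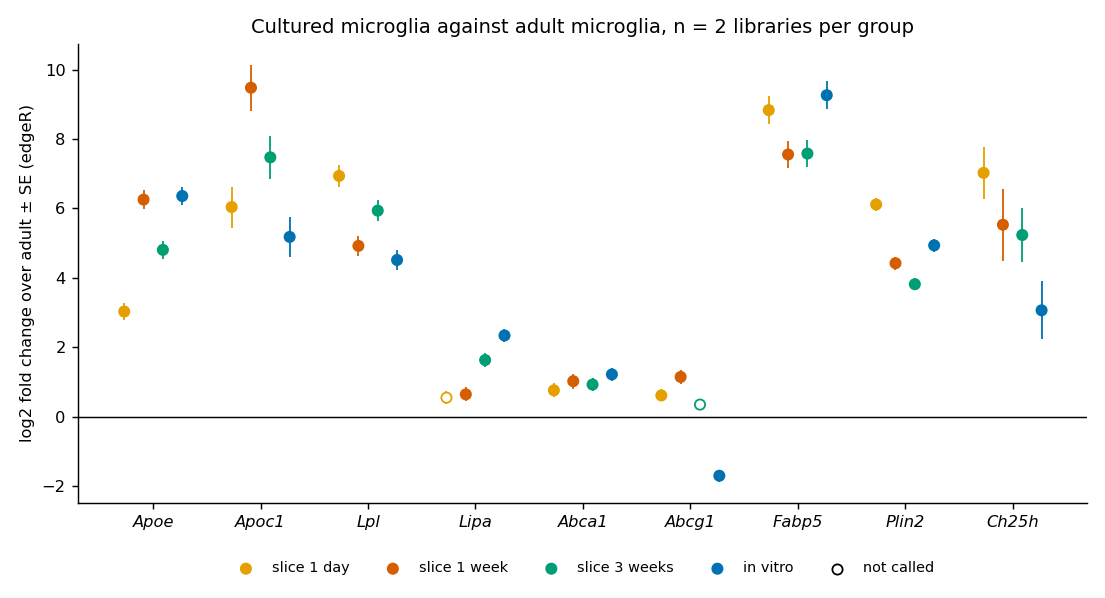
Log2 fold change of each gene over adult microglia in the 4 cultured groups, with the standard error of the edgeR fit. Filled points were called and open points were not. Fabp5 in vitro stands highest for that group at 9.26, and Abcg1 in vitro is below 0 at -1.70.

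Counted together, 8 of the 9 genes were called higher and 1 lower in vitro than in adult microglia, where 50.9% of all tested genes were called in either direction (22.4% higher and 28.5% lower). As UMIs per cell the split was 8 higher and 0 lower, where 85.1% of all tested genes were called in either direction. In slices, 8 were called higher and 0 lower at 1 day (50.3% of all genes called, 24.9% higher and 25.4% lower). At 1 week the split was 9 and 0 (28.6%, 15.0% higher and 13.6% lower), and 8 and 0 at 3 weeks (35.5%, 18% higher and 17.5% lower). Their median log2 fold change over adult was 4.52 in vitro, 6.04 at 1 day, 4.92 at 1 week and 4.81 at 3 weeks, beside medians over all tested genes of -0.11, -0.06, -0.08 and -0.03. These 4 comparisons share the 2 adult libraries, so that their similarity is not a result of its own. As UMIs per cell the medians over all genes were themselves 2.04, 1.49, 1.10 and 1.05, beside a median depth of 3257 and 1858 UMIs in adult, 5266 to 8335 in slice and 12858 and 13966 in in vitro cells. The 9 genes are few and were chosen with earlier results of these data known.

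Set against slices at 3 weeks, in vitro microglia split the genes, with 4 higher in vitro (Apoe, Lipa, Fabp5 and Plin2), 4 lower (Apoc1, Lpl, Abcg1 and Ch25h) and Abca1 not called (log2 0.29 ± 0.19, edgeR adjusted p = 0.256). Without slice 3 weeks replicate 2 Abca1 was called higher in vitro (log2 0.715, edgeR adjusted p = 0.00919). Of all genes tested, 33.3% were called in this comparison, 13.3% higher and 20% lower. As UMIs per cell the split of the 9 genes was 5 and 3, where 58.3% of all genes were called in either direction. Abca1 was then called higher and Lpl no longer called (log2 -0.33). From 1 day to 3 weeks in slices, 3 genes rose (Apoe, Apoc1 and Lipa) and 4 fell (Lpl, Fabp5, Plin2 and Ch25h), with 26.8% of all genes called (13.9% higher and 12.8% lower). Without slice 1 day replicate 2 only 4 of these 7 calls were made. Apoe rose over this time by 1.78 ± 0.22 on the log2 scale (edgeR adjusted p = 0.000461).

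From 1 day to 1 week, 2 genes were called higher and 3 lower (10.2% of all genes called, 4.92% higher and 5.26% lower). Apoe rose by 3.22 ± 0.23 (edgeR adjusted p = 0.000215) and Apoc1 by 3.44 ± 0.49 (0.00353), and the log2 changes of Lpl, Fabp5 and Plin2 were -2.02 ± 0.25, -1.28 ± 0.28 and -1.69 ± 0.16, all called. The fall of Fabp5 (edgeR adjusted p = 0.0188) was lost without slice 1 day replicate 1 (0.0876) or either 1 week library (0.112 and 0.0866), and in thinned cells (log2 -0.93, edgeR adjusted p = 0.198). Ch25h was not called (log2 -1.49, edgeR adjusted p = 0.185), but was in 6 alternatives, among them those without either slice 3 weeks library (0.0171 and 0.0151). From 1 week to 3 weeks, 2 genes were called higher (Lpl and Lipa) and 3 lower (Apoe, Apoc1 and Abcg1), with 5.73% of all genes called (2.24% higher and 3.5% lower), and each of these 5 calls was lost when some single library was left out. For Lipa (log2 0.99 ± 0.20, edgeR adjusted p = 0.0221) these were slice 1 week replicate 1 (0.229), slice 1 week replicate 2 (0.0561) and slice 3 weeks replicate 2 (0.0571). As UMIs per cell the rise of Lipa was not called (0.263).

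In vitro microglia against slice microglia at 1 day had 2 genes called higher, Apoe (log2 3.33 ± 0.24) and Lipa (log2 1.79 ± 0.20), and 4 lower, Lpl (log2 -2.42 ± 0.25), Abcg1, Plin2 (log2 -1.18 ± 0.16) and Ch25h (log2 -3.96 ± 0.53), where 31.9% of all genes were called (13.3% higher and 18.6% lower). As UMIs per cell Plin2 was not called (log2 -0.55), and Abca1 and Fabp5 were called higher in vitro (log2 1.08 and 1.09). Against slices at 1 week, Lipa (log2 1.70 ± 0.21) and Fabp5 (log2 1.71 ± 0.29) were higher and Apoc1 (log2 -4.30 ± 0.50) and Abcg1 lower, where 16.2% of all genes were called (6.21% higher and 10.0% lower). The difference of Fabp5 was 1.06 in thinned cells and not called there (edgeR adjusted p = 0.0751). Ch25h was not called (log2 -2.46, edgeR adjusted p = 0.0525), but was without the neutrophil-like barcodes (log2 -2.54, edgeR adjusted p = 0.046), under 6 other alternatives and without either slice 3 weeks library. As UMIs per cell the split was 5 higher and 3 lower, with Apoe, Abca1 (log2 1.18) and Plin2 (log2 1.499) called higher as well and Ch25h lower. Over all 36 neighbouring pairs in the order of levels, 4 for each gene, 19 were called, where 10.5% of such pairs were called over all tested genes. A permutation of 2 libraries against 2 cannot give a two-sided p below 0.333, so that these calls rest on the spread that edgeR estimated across genes and groups.

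Adult replicate 1 and slice 3 weeks replicate 1 carried another study label (TST11200) than the other 8 libraries (TST11247), and the direction over adult was compared within each label. Slice microglia at 3 weeks against adult, with 1 library on each side, had log2 ratios for Apoe of 4.72 within TST11200 and 4.94 within TST11247. The pairs were 3.91 and 3.72 for Plin2, 6.02 and 5.87 for Lpl, 7.46 and 7.96 for Fabp5, and 1.301 and 1.91 for Lipa. They lay further apart for Abca1 (0.49 and 1.301), Apoc1 (6.74 and 9.89) and Ch25h (6.10 and 3.87), the last 2 resting on 3 to 42 adult UMIs. Within TST11247 the other cultured groups lay in the same direction over adult as in the pooled fit for all 9 genes.

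The share of cells with a UMI was compared after each cell was thinned to 1000 UMIs, since depth per cell differed between groups, with 66 and 205 adult cells too shallow to keep. Apoe was detected in 32.3% and 19.1% of adult cells, in 88.4% and 94.5% at 1 day, and in 99.0% to 100% of cells of the other groups. Fabp5 was found in 0.268% (95% exact interval 0.129% to 0.492%) and 0.0903% (0.0186% to 0.264%) of adult cells, and in 35.1% and 54.2% of in vitro cells. Lpl was found in 1.53% and 1.87% of adult cells, 55.2% and 73.1% at 1 day, 46.3% and 50.2% at 3 weeks and 18.9% and 22.9% in vitro. Plin2 was found in 2.22% and 2.92% of adult cells and in 65.3% and 71.1% at 1 day. Apoc1 reached 44.6% and 39.0% of slice cells at 1 week, against 4.55% and 3.02% of in vitro cells.

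Without thinning, Apoe was detected in 60.8% and 27.5% of adult cells, Fabp5 in 0.763% and 0.227%, Lpl in 4.45% and 3.20% and Plin2 in 8.16% and 4.96%, and in vitro Fabp5 was detected in 82.7% and 94.3% of cells. The intervals cover counting error only. Neutrophil-like barcodes of the slices, a cell type in which microglial transcripts should be low, served as the reference for free RNA. In slice 1 day replicate 2, with median depths of 4925 UMIs in the 114 neutrophil-like and 8902 in the 900 other cells, the thinned share with Apoe was 80.7% against 96.2%. Lpl was found in 35.96% of neutrophil-like and 77.8% of other cells there, and Plin2 in 43.9% and 74.6%. Lipa was found in 14.9% and 14.1%, and its level was 90.2 CPM in neutrophil-like and 153 CPM in other cells of that library, but 239 and 168 CPM in slice 1 day replicate 1. Whether neutrophils hold Lipa transcripts of their own was not tested. In slice 1 day replicate 1, with 68 neutrophil-like cells of median depth 2224 and 450 others of 6986 UMIs, Apoe was found in 82.4% against 89.3%, Lpl in 11.8% against 61.8%, Plin2 in 55.9% against 66.7% and Lipa in 13.2% against 14.2%. In slice 1 week replicate 1, with 24 such cells and 124 others, Apoe was found in 100% of both and Plin2 in 33.3% against 37.9%, so that these shares cannot be told from background there, while Apoc1 was found in 16.7% against 50% and Lpl in 8.33% against 38.7%. The Apoe level was 3257 CPM in neutrophil-like and 8078 CPM in other cells of slice 1 day replicate 1, 2122 and 6847 CPM in slice 1 day replicate 2, and 14276 and 69155 CPM in slice 1 week replicate 1. Apoe, Lpl and Plin2 were higher in CPM in the other cells of each of these 3 libraries. Without the neutrophil-like barcodes none of the 9 genes lost a call against adult microglia. In the adult, in vitro and 3 week libraries no such reference cells were found.

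**Figure D4:**
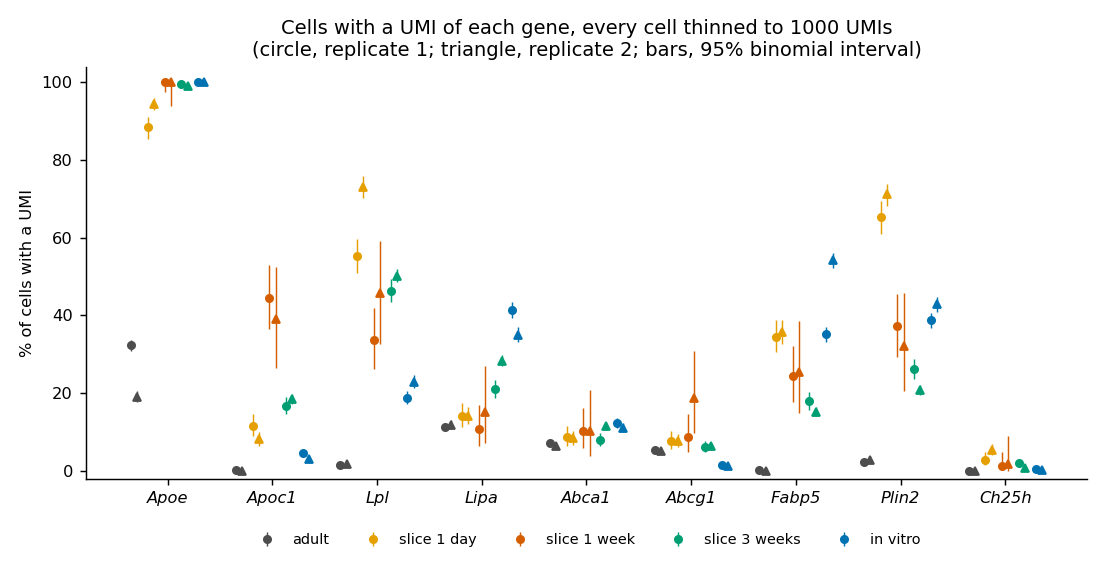
Percent of cells with at least 1 UMI of each gene in each library after each cell was thinned to 1000 UMIs, with the 95% exact binomial interval. Apoe is near 100% in all in vitro, 1 week and 3 week cells and at 32.3% and 19.1% in adult cells, while Fabp5 is below 0.3% in adult cells.

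Cells of 3 week slices with at least 1 UMI of Gpnmb, a gene of lipid-laden microglia, were compared with the rest after thinning (117 and 246 cells against 1036 and 3494). Fabp5 was higher in them by 2.32 and 1.86 on the log2 scale in replicates 1 and 2, Plin2 by 1.39 and 1.37, Apoe by 0.91 and 1.11, Lipa by 1.06 and 0.94 and Apoc1 by 0.99 and 0.83. Lpl differed by 0.30 and 0.62, Abca1 by 0.01 and 0.06 and Abcg1 by -0.09 and 0.68. In the Gpnmb-positive cells Abca1 rested on 10 and 33 UMIs and Abcg1 on 7 and 25. With at least 2 Gpnmb UMIs per positive cell, Abca1 differed by -1.93 and -0.04 and Abcg1 by -1.52 and -0.61. Ch25h had 4 UMIs in the Gpnmb-positive cells of replicate 1 and 0 in replicate 2. These are descriptions without a test.

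**Figure D5:**
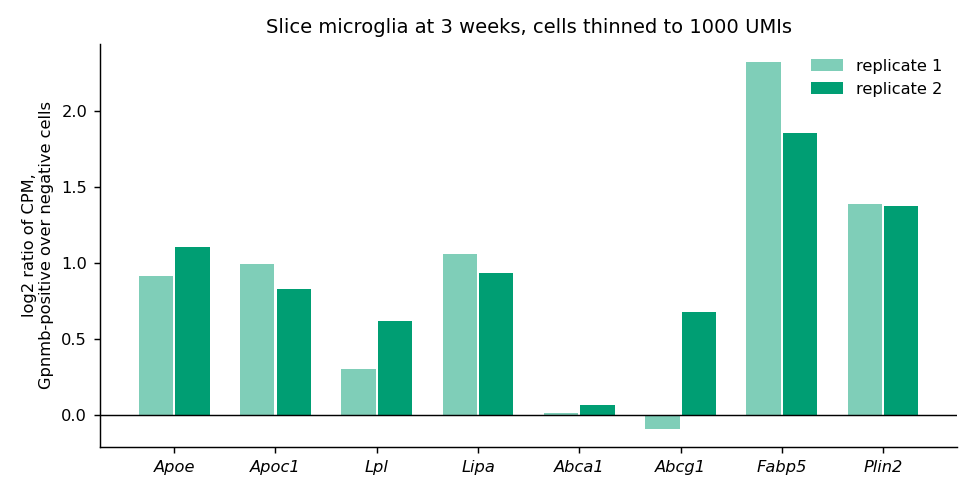
Log2 ratio of the level of each gene in Gpnmb-positive over Gpnmb-negative slice cells at 3 weeks, in both replicates, after thinning to 1000 UMIs. Bars of Fabp5 stand highest at 2.32 and 1.86. Those of Abca1 are near 0, from 10 and 33 UMIs in the positive cells. Ch25h is left out because replicate 2 had 0 UMIs in the positive cells.

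Over the 10 libraries, the genes most like each member were named by Pearson r of log2 CPM among 3909 well expressed genes. They were Ctla2a (0.977) and Pltp (0.971) for Apoe, Eef2 (0.970) and Gm10263 (0.961) for Apoc1, Pkm and Lilrb4a (both 0.988) for Lpl, Dpm3 (0.975) and Sgpl1 (0.963) for Lipa, and Use1 (0.979) and Caprin1 (0.968) for Abca1. Abcg1 was closest to Klhl6 (0.950) and Csnk1d (0.944), Fabp5 to Ifitm2 (0.992) and Lgals1 (0.992), Plin2 to Msr1 (0.996) and Tuba1c (0.995), and Ch25h to Eno1 (0.961) and Rpl27 (0.959). The points share their libraries and fall into 5 groups, so these values describe likeness of pattern across groups. Among the members themselves r was 0.96 for Fabp5 with Plin2, 0.93 for Lpl with Plin2 and 0.91 for Lpl with Ch25h, but -0.65 for Lipa with Abcg1.

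Other genes of lipid handling are given from 9 lists, which hold some of the 9 genes. Calls in vitro, at 1 day and at 3 weeks are against adult microglia, the second split in each pair is that of UMIs per cell, where all genes shift upward as above, and medians are log2 fold changes in the same order. Splits at 1 week, the thinnest group, are left out except where named, and some differed. There 2 SREBP2 targets were called higher and 1 lower (15.0% called), and 3 and 3 lysosomal genes (40.0%), beside 28.6% of all genes called. Scaling by library size alone gave another split for some lists in vitro: 2 higher and 4 lower of lysosomal genes, 5 and 5 of SREBP2 targets, 4 and 5 of fatty acid oxidation genes, and 4 and 5 of lipid droplet genes. The per cell splits are to be read against the 85.1%, 71.4% and 58.7% of all tested genes called in these comparisons with UMIs per cell. Shares of list genes called after TMM scaling are to be read against the 50.9%, 50.3% and 35.5% of all tested genes called in these comparisons. For SREBP2 targets these shares were 45.0%, 45.0% and 50%, and for lysosomal genes 53.3%, 53.3% and 40.0%. For lipid droplet genes they were 53.3%, 66.7% and 60.0%, and for fatty acid oxidation genes 58.8%, 58.8% and 47.1%. Of these, SREBP2, lysosomal and fatty acid oxidation genes in vitro and at 1 day lie near or below the share of all genes. So do lysosomal genes at 3 weeks and lipid droplet genes in vitro. For fatty acid binding genes the shares called were 75.0%, 58.3% and 50%, of which that at 1 day also lies near the share of all genes. They were 76.9%, 69.2% and 61.5% for receptors, 73.3%, 80.0% and 46.7% for LXR targets, and 71.4% in each for sterol oxidation genes. Among lipoprotein and scavenger receptors, which take up lipid (13 tested), 8 were called higher and 2 lower in vitro (12 and 0 per cell), 8 and 1 at 1 day (12 and 0) and 7 and 1 at 3 weeks (12 and 0), with medians of 1.57, 1.42 and 1.12. The scavenger receptor Msr1 was 320-fold higher at 1 day, from 0.899 to 299.7 CPM (log2 8.32 ± 0.31), and 31.6-fold higher at 3 weeks. Cd36, the fatty acid and oxidised lipoprotein receptor, rose from 0.312 CPM to 234 CPM in vitro and 186 CPM at 1 day (log2 9.45 ± 0.32 and 9.12 ± 0.32). Trem2, a lipid sensing receptor, was lower than adult in vitro (log2 -1.06 ± 0.16) and at 1 day (log2 -1.74 ± 0.16), and rose within slices from 1 day to 3 weeks by 2.01 ± 0.17.

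Fatty acid binding and activation genes (12 tested) had 8 called higher and 1 lower in vitro (12 and 0 per cell), 7 and 0 at 1 day (12 and 0) and 6 and 0 at 3 weeks (10 and 0), with medians of 1.79, 1.17 and 1.26. Fabp3 rose with Fabp5, from 0.551 CPM in adult to 24.7 CPM in vitro (log2 5.44 ± 0.37) and 27.0 CPM at 3 weeks (log2 5.56 ± 0.38). Lipid droplet storage and lipolysis genes (15 tested) had 5 higher and 3 lower in vitro (12 and 1 per cell), 8 and 2 at 1 day (12 and 1) and 7 and 2 at 3 weeks (11 and 1), with medians of -0.00, 0.78 and 0.95. The called falls at 1 day and 3 weeks were of Mgll and Lipe, and those at 1 week of Mgll and Fitm2, a protein of fat storage. Mgll, which cleaves monoglycerides, fell from 79.7 CPM in adult to 0.313 CPM in vitro (log2 -7.94 ± 0.30), 7.75 CPM at 1 day and 13.9 CPM at 3 weeks, and Lipe, the hormone-sensitive lipase, fell from 28.6 CPM to 8.70, 10.4 and 10.8 CPM in the same order, while the third fall in vitro was of the acyl-CoA synthetase Acsl1. In fatty acid oxidation (17 tested), 8 were higher and 2 lower in vitro (17 and 0 per cell), 8 and 2 at 1 day (15 and 0) and 6 and 2 at 3 weeks (14 and 0), with medians of 0.58, 0.42 and 0.33, and Cpt1a, which admits fatty acids to mitochondria, rose in each (log2 1.73 ± 0.25, 1.73 ± 0.27 and 1.82 ± 0.26).

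Lysosomal lipid handling genes (15 tested, among them Lipa) had 5 higher and 3 lower in vitro (14 and 0 per cell), 0 and 8 at 1 day (8 and 1) and 5 and 1 at 3 weeks (13 and 1), with medians of 0.01, -0.63 and 0.52. From 1 day to 3 weeks in slices all 15 of the list were called higher, with a median of 1.08 beside 0.05 over all genes, where 13.9% of all genes were called higher. As UMIs per cell 4 of the 15 were called, all higher, where 19.7% of all genes were called in either direction. Npc2, which passes cholesterol out of the lysosome, rose from 642 to 2303 CPM (log2 1.84 ± 0.16), and the hydrolases Glb1 and Galc rose as well (log2 1.80 ± 0.17 and 1.503 ± 0.18).

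LXR targets and regulators (15 tested, 4 of them members) had 7 higher and 4 lower in vitro (11 and 1 per cell), 8 and 4 at 1 day (11 and 0) and 5 and 2 at 3 weeks (11 and 0), with medians of 0.15, 0.62 and 0.11. Pltp, the phospholipid transfer protein, rose from 1.62 CPM in adult to 181 CPM in vitro (log2 6.67 ± 0.44), 8.72 CPM at 1 day and 27.8 CPM at 3 weeks. The other LXR targets Lpcat3 and Mylip were lower in vitro (log2 -2.51 ± 0.20 and -1.96 ± 0.18), and the list did not move in 1 direction. Other apolipoproteins and carriers (4 tested) had 3 higher and 1 lower in vitro (3 and 0 per cell), 3 and 0 at 1 day (4 and 0) and 2 and 0 at 3 weeks (3 and 0), with medians of 5.52, 2.29 and 4.19. Apoc2 had 0 UMIs in both adult libraries, and with its adult level set to a floor of 3 counts over the group the medians were 3.82, 2.29 and 2.50. Apoc4, in the Apoe cluster, rose from 0.312 CPM in adult to 6.88 CPM in vitro, 75.1 CPM in slices at 1 week and 15.9 CPM at 3 weeks, so that it, like Apoc1, was higher in slices at 1 week than in vitro. The annotated gene Gm44805 overlaps both Apoc4 and Apoc2, so that their counts are uncertain.

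Sterol oxidation and oxysterol sensing genes (7 tested) had 2 higher and 3 lower in vitro (4 and 0 per cell), 1 and 4 at 1 day (2 and 1) and 2 and 3 at 3 weeks (2 and 1), with medians of -1.002, -0.95 and -0.15. At 3 weeks the count of 5 called fell to 3 without adult replicate 1, either in vitro library or slice 3 weeks replicate 1. Cyp27a1, which makes 27-hydroxycholesterol, fell from 27.1 CPM in adult to 2.86 CPM at 1 day (log2 -3.29 ± 0.24) and 6.01 CPM at 3 weeks, opposite to Ch25h. The oxysterol receptor Gpr183 fell from 196 CPM in adult to 44.1 CPM in vitro (log2 -2.15 ± 0.20), 94.2 CPM at 1 day and 124 CPM at 3 weeks. SREBP2 targets of cholesterol synthesis and uptake (20 tested) had 8 higher and 1 lower in vitro (20 and 0 per cell), 8 and 1 at 1 day (18 and 0) and 10 and 0 at 3 weeks (19 and 0), with medians of 0.44, 0.59 and 0.82. Without adult replicate 1 the counts of 9 called at 1 day and 10 at 3 weeks were 3 and 4, without slice 1 day replicate 2 the former was 4, and in thinned cells the counts in vitro and at 1 day were 4 and 3. Squalene epoxidase, Sqle, rose from 0.559 CPM to 4.80 CPM in vitro, 8.34 CPM at 1 day and 5.67 CPM at 3 weeks (log2 2.99 ± 0.50, 3.79 ± 0.52 and 3.16 ± 0.52).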

How the data were processed

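The authors sequenced 10x Genomics 3' libraries of sorted microglia and deposited 1 table of UMI counts, genes by cell barcodes, for each of the 10 libraries. Per the labels the counts come from Cell Ranger 1.3.0 with mm10, and whether the tables precede or follow its aggregate step is not given in the sources used here. All reads lie near transcript ends and no length normalization applies. Of 19637 barcodes, 19059 were kept (at most 5% mitochondrial UMIs, at least 400 genes, at most 30000 UMIs), and no doublet caller was run.

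Per-library sums of UMIs were tested with edgeR 4.0.16 (R 4.3.3) by a quasi-likelihood fit over 5 groups with TMM factors and filterByExpr at a minimum count of 10, which left 12155 of 18281 symbols. The p-values were adjusted by Benjamini and Hochberg over all tested genes, and a call needed an adjusted p under 0.05 and a fold change above 1.5. The biological coefficient of variation was 18.2%. The submitters describe the 2 libraries of a group as biological replicates, and p-values measure the spread between such libraries only. Cells were thinned to 1000 UMIs for shares of cells, whose 95% intervals are exact binomial. The fit was tested on simulated counts. The study label in the titles served as a possible batch. Alternatives were DESeq2 1.42.0, other scalings, filters, covariates and libraries left out, of which the fit without both slice 1 week libraries was chosen after seeing the data, like the promoter motifs and the threshold for Apoe-rich cells. The 9 genes and the lists of other genes were chosen with earlier results of these data known. Named genes are all 9, the 2 most like each by Pearson r over the libraries among genes whose mean log2 CPM reached 5, and from the lists up to 3 called genes per direction with the largest change. Coordinates are from GENCODE vM21 on mm10 and promoter sequences from RefSeq.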

Additional observations from a re-analysis of the deposited data

How the results depend on the processing

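Of the 9 genes, leaving out 1 library gave 8 to 9 calls in vitro against adult (9 in the reported fit), 7 to 9 at 1 day (8), 7 to 9 at 1 week (9), 8 at 3 weeks (8), 6 to 9 in vitro against slices at 3 weeks (8) and 4 to 7 from 1 day to 3 weeks (7), with the 4 given by leaving out slice 1 day replicate 2. Neighbours called in the order of levels were 16 to 20 (19). The other alternatives gave 8 to 9, 7 to 9, 7 to 9, 8 to 9, 7 to 8, 6 to 7 and 16 to 22. With the replicate number as a block the counts were those of the reported fit (9, 8, 9, 8, 8, 7 and 19), and Abcg1 from 1 week to 3 weeks lost its call (log2 -0.79, edgeR adjusted p = 0.0567). Deviations of same-numbered libraries correlated at -0.112 to 0.0941 over the 10 pairs of groups, which shows no pairing by number. It cannot exclude one, because noise in thin libraries also lowers such values. In the adult and the 3 week slice libraries the numbers follow the study label.

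Over the 10 comparisons of the 9 genes and all alternatives, called log2 fold changes kept direction and call in 1490 cases, lost the call in 73 and changed direction in 1. Uncalled ones stayed uncalled in the same direction in 400, were called in 48 and changed direction in 22. The reversals with UMIs per cell were Abcg1 in vitro against adult (0.48), Lpl in vitro against 1 week (0.58), Lipa and Abca1 from 1 day to 1 week (-0.25 and -0.10), Abca1 from 1 day to 3 weeks (-0.31) and Fabp5 from 1 week to 3 weeks (-0.0509). With library size alone Apoe in vitro against 1 week was -0.000727. Lipa from 1 day to 1 week was -0.41 in thinned cells and -0.0497 to 0.17 with 1 library left out, lowest without slice 1 week replicate 2, and Abca1 from 1 day to 3 weeks was -0.18 to 0.45, lowest without slice 3 weeks replicate 2. From 1 week to 3 weeks, Abca1 was 0.0341 with no filter on low counts, 0.13 in thinned cells, 0.000893 with the study label as covariate, 0.19 in TST11247 alone and -0.392 to 0.193 with 1 library left out, above 0 without slice 1 week replicate 1 (0.0407) or slice 3 weeks replicate 1 (0.193). Over the same step Fabp5 was -0.53 in thinned cells, -0.0193 without neutrophil-like cells, -0.23 with the covariate, -0.16 in TST11247 alone and -0.16 to 0.26 with 1 library left out, lowest without slice 3 weeks replicate 1. Ch25h was -1.52 to 0.54, above 0 without slice 1 week replicate 2 (0.103) or slice 3 weeks replicate 2 (0.537). The cause was not tested. Counts of called list genes moved by over 1.5 times in 23 cases with UMIs per cell, 15 in thinned cells and at most 7 under any other alternative. Depth limits the adult values of Apoc1, Fabp5 and Ch25h, which rest on 3 to 42 UMIs a library. The adult levels of the list genes Cd36, Msr1, Fabp3, Apoc4 and Sqle were lower in CPM than that of Fabp5, so that their folds over adult rest on few UMIs as well.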
